A study of Mus musculus with 13 samples.

Results

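VQ line D1 is a transplanted mouse plasma cell tumour, and its 2 libraries, each from a separate recipient mouse, were compared with the 6 libraries of non-tumour plasma cells, 3 from wild-type mice (WT) and 3 from mice with the Vκ*MYC transgene and IgG1-Cre (V). The genes followed most closely are those that stood apart in line D1: both of its values had to lie above, or both below, the values of all 11 other libraries. Those 11 are WT, V, the other VQ lines D4 (1 library) and D5 (2 libraries), and the line tVk12653 (2 libraries); the labels do not state whether D1, D4 and D5 are independent tumours. Of 12835 genes tested, 1263 met that rule, which is 9.84%: 614 above the range (4.78%) and 649 below it (5.06%). Every library was made from 50000 sorted bone marrow cells that were CD138-positive, B220-negative and CD45.2-positive, on a C57/BL6 background. VQ mice carry Vκ*MYC, IgG1-Cre and 1 Nras allele with the Q61R change behind a stop cassette that Cre removes. The VQ and tVk12653 cells were taken from recipients and the WT and V cells were not, so transplantation and tumour state cannot be told apart, and the 2 D1 libraries are 2 recipients of 1 line, so their spread is that between recipients and not between tumours.

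Plasma cells are the antibody-secreting end stage of the B cell lineage. They switch off most B cell receptor genes, expand the endoplasmic reticulum and live in bone marrow niches, and multiple myeloma is their cancer. In Vκ*MYC mice a human MYC transgene is turned on in germinal centre B cells, and IgG1-Cre acts in B cells that have begun to switch to IgG1. Nras is a small GTPase at the head of the RAS-ERK pathway, and Q61R keeps it in its active state.

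Levels are CPM, a gene's share of its library's counts on a common scale that corrects for library composition, and differences are log2 fold changes with their standard error from edgeR's quasi-likelihood test with Benjamini-Hochberg adjustment over all 12835 genes. Totals ran from 2096815 to 8512281 counts a library, and the D1 libraries held 3401667 and 8512281, so 3 counts correspond to 0.807 and 0.326 CPM in them. Sdc1, which encodes CD138, was at 927 and 843 CPM in D1 against 676 to 1123 in the non-tumour libraries, and did not pass the test (log2 change -0.09 ± 0.22, adjusted p = 0.74). Ptprc, which encodes CD45, was at 272 and 248 CPM in D1 and at 1.69 to 6.65 in the D4 and D5 libraries. Nras was at 45.5 and 41.7 CPM against 30.8 to 38.1 (0.29 ± 0.14, adjusted p = 0.086); gene counts do not show which allele the reads came from. Myc was at 902 and 687 CPM in D1, 35.0 to 72.2 in WT, 307 to 430 in V and 8000 and 8200 in tVk12653, and whether transgene reads enter this row was not tested. Marker genes of other marrow cells were mostly low in D1. Neutrophil markers summed to 1357 and 411 CPM against 2006 to 9984 in the non-tumour libraries and 93.4 to 178 in the other tumour lines. Of these markers, 14 of 19 were lower than in the non-tumour libraries, and 2 without D1 replicate 2. By comparison, 27.5% of all genes tested were lower. B cell markers summed to 185 and 175 CPM against 742 to 1179, with 11 of 12 lower and Cd79a, Ms4a1, Cd22 and Vpreb3 at 0 in both D1 libraries. Most of the D1 sum came from Cd79b, at 660 and 1565 counts. T and NK cell markers summed to 7.80 and 8.36 CPM against 63.0 to 129.8, and the WT replicate 2 library had the highest neutrophil and erythroid sums. In bulk RNA, fewer cells of a type and less RNA per cell cannot be told apart.

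Between line D1 and the non-tumour cells, 6902 genes passed the test at an adjusted p under 0.05 (53.8%): 3373 genes were higher (26.3%) and 3529 lower (27.5%). Both D1 values lay above all 6 non-tumour values for 3480 genes (27.1%) and below them for 3628 (28.3%). In the test, 1822 of the higher and 2366 of the lower genes changed at least 2-fold. Without D1 replicate 2 the lower count dropped to 2219. Against the mean of the other transplanted lines, 1786 genes were higher in D1 (13.9%) and 1462 lower (11.4%); with the recipients of each line summed to 1 library, these counts were 898 and 683. Both comparisons use the same D1 libraries. The same range rule gave 2227 genes above and 1831 below for line D5, and 1225 above and 928 below for tVk12653. At a margin of at least 2-fold to the nearest other library, D1 had 86 genes above and 92 below, D5 400 and 299, and tVk12653 195 and 98. At 8-fold, D1 had 11 above and 19 below. The median gap of the D1 genes was 0.22 log2 units above and 0.24 below, so most lay near the edge of the other libraries. Gnl3l, just inside, read 79.4 and 78.1 CPM against a highest other value of 78.1, while Rbm18, just outside, read 32.6 and 33.2 CPM against 32.6. On the lower side Ube2h, just inside, read 30.4 and 28.4 CPM against a lowest other value of 30.4, and B3galt5, just outside, was at 0 in both D1 libraries and in D4. CPM by total counts alone gave 995 above and 455 below in place of 614 and 649, so the split between the directions depends on the scaling. Without D1 replicate 1, 1092 genes lay above and 1009 below, since a single library then has to clear the range.

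**Figure D1:**
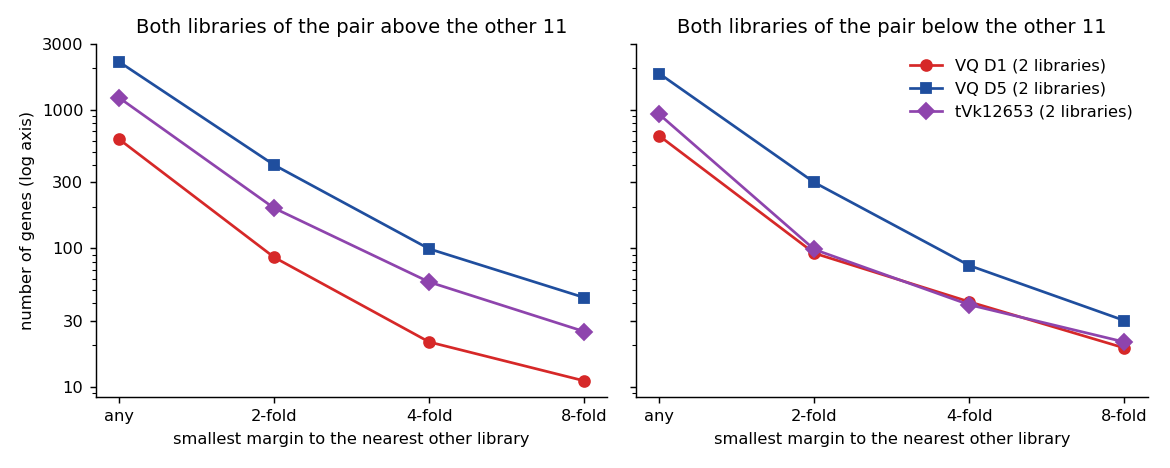
Genes outside the range of all other libraries (y axis, number of genes, log scale) for line D1, line D5 and tVk12653, above and below, by the margin to the nearest other library (x axis, fold). Line D1 falls from 614 above and 649 below with no margin to 11 and 19 at 8-fold.

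The genes that stood farthest above the range in line D1 were close to silent in almost every other library. Zfpm2, a cofactor of GATA transcription factors (chr15:40655042-41104592, GRCm38.p6), was at 66.2 and 52.0 CPM in D1. No other library exceeded 0.369 CPM, and 8 of the 11 were at 0. Clec2f, a C-type lectin-like gene (chr6:129008803-129021342), was at 115 and 135 CPM against 0 to 2.58 in the other 11. Its neighbours on chromosome 6 were lower than in the non-tumour cells. Clec2g was at 0 in both D1 libraries and at 31.0 to 118 in the non-tumour cells, and Clec2d was at 85.3 and 59.3 against 219 to 399. The other tumours shared this, with Clec2g at 0 in all of them and Clec2d at 22.2 to 55.9. Ndst3, which adds sulfate to heparan sulfate chains (chr3:123526166-123691174), was at 159 and 187 CPM, with a non-tumour median of 0.184 and a highest value of 5.92 in V replicate 1. Rbm24, an RNA-binding protein known from muscle splicing, was at 57.3 and 100.7 CPM; the next library was WT replicate 2 at 5.16, and all 5 other tumour libraries were at 0.

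Esrp1, Cdh19 and Myom1 were also above the range. Esrp1, an epithelial splicing regulator (chr4:11331933-11386783), was at 78.0 and 74.4 CPM in D1, at 0 in all 6 non-tumour libraries and at 2.08 and 4.35 in tVk12653. Against the 3-count floor of the non-tumour libraries, its D1 mean was at least 70.0-fold higher. Cdh19, a cadherin (chr1:110888002-110977601), was at 294 and 335 CPM; line D4 came next at 34.4, and the non-tumour median was 0.354. Its neighbour Dsel was at 0 in both D1 libraries and at 10.3 to 58.4 in the non-tumour cells. Dsel was also at 0 in tVk12653, at 1.69 in D4 and at 14.6 and 23.3 in D5. Myom1, a protein of the muscle sarcomere, was at 126 and 112 CPM over a flat level of 9.38 to 16.7 in the other 11 libraries. Pdgfd, a platelet-derived growth factor, was at 29.3 and 20.5 CPM against at most 2.38 elsewhere, and Aplp1, a relative of the amyloid precursor protein, at 119 and 92.4 against at most 21.2. Fads2b, named for fatty acid desaturases, was at 106 and 116 CPM, with D4 next at 20.1. Dcstamp, known from cell fusion in osteoclasts, was found only at 6.19 and 3.37 CPM in D1 and at 0 in the other 11. Of the 86 genes with a 2-fold margin, 18 were under 1 CPM in all 11 other libraries, so their margins rest on low counts in those libraries.

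**Figure D2:**
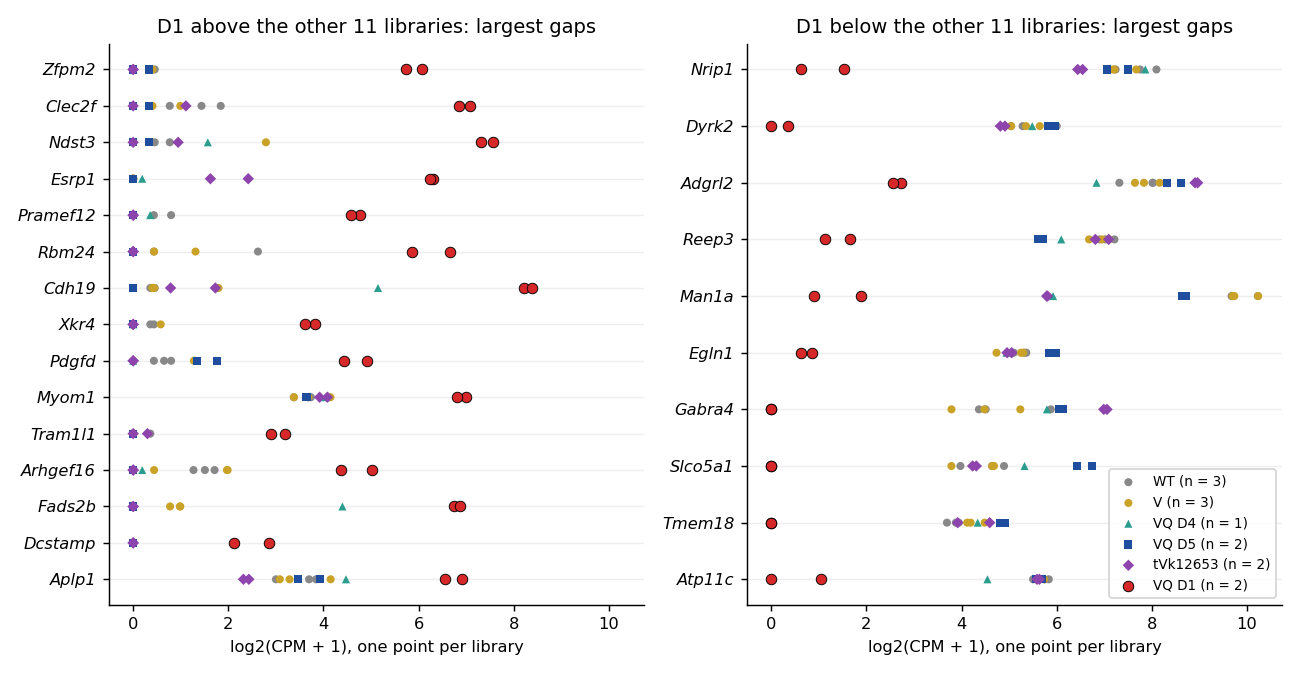
Level of the genes farthest above and below the range in line D1 (x axis, log2(CPM + 1), one point a library, coloured by group; y axis, genes). The D1 points lie apart from the other 11 libraries in every gene, for example 66.2 and 52.0 CPM for Zfpm2 and 1.88 and 0.543 CPM for Nrip1.

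Genes with a smaller margin included cell junction, surface and matrix genes. Ocln, a tight junction protein, was at 40.1 and 51.7 CPM against at most 9.48 in tVk12653, and Cldn3, another, at 9.15 and 8.15 against at most 1.97. Mcam, an adhesion molecule of endothelium and melanoma, was at 26.6 and 22.3 CPM, and D4 came next at 9.27. Icam1, the ligand of the integrin LFA-1, was at 142 and 137 CPM against 13.04 to 71.4, while Itgal, the LFA-1 alpha chain, lay below the range at 314 and 278 CPM against 380.0 to 845. So the ligand stood above and the integrin chain below every other library. Pecam1 was at 401 and 147 CPM, with the non-tumour libraries at 51.8 to 95.7. It made up most of the endothelial marker sum of 440 and 158 CPM, and the endothelial gene Cdh5 was at 1.35 and 0.760 CPM against 3.94 to 9.86. H2-Oa, a chain of a modulator of MHC class II loading, was at 42.8 and 32.0 CPM against at most 7.37, while H2-Aa, a class II chain itself, was at 3.77 and 0.435 against 25.1 to 186 in the non-tumour cells. Cp, the copper-carrying ferroxidase ceruloplasmin (chr3:19956933-20009750), was at 2083 and 3235 CPM, against 539.9 and 384 in tVk12653 and a non-tumour median of 57.8.

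Growth regulators were also among the genes above the range. Rb1, which restrains entry into S phase, was at 347 and 274 CPM against 120.2 to 157 in the non-tumour cells, and tVk12653 lacked it almost wholly at 0.231 and 0.724. Jak2, a kinase below cytokine receptors, was at 265 and 277 CPM; D4 was next at 234. Bcl2l1, which encodes the survival protein BCL-XL, was at 109.8 and 108 CPM against 21.9 to 74.95 in the non-tumour cells and 3.18 and 3.32 in D5. Lin28b, which blocks maturation of let-7 microRNAs, was at 77.0 and 90.5 CPM in D1 and at most 0.986 in the non-tumour cells, while D4 had 51.3, tVk12653 had 56.2 and 65.6, and D5 had 3.71 and 6.65. High Lin28b was thus shared by D1, D4 and tVk12653, and D1 lay at the top of that group.

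The gap that ranks genes below the range requires expression in all 11 other libraries and a far lower level in line D1. The genes ranked farthest below were nearly absent in D1. Nrip1, a corepressor of nuclear receptors (chr16:76287403-76373827), was at 1.88 and 0.543 CPM in D1, against a non-tumour range of 144 to 273 (median 176) and 86.0 to 232 in the other tumours. Dyrk2, a kinase that can phosphorylate p53 (chr10:118855602-118889245), was at 0.269 and 0 CPM against 27.2 to 63.0. Adgrl2, a latrophilin adhesion receptor (chr3:148815586-148989096), was at 5.65 and 4.89 CPM against 113 to 498. Man1a, a Golgi mannosidase that trims N-glycans (chr10:53904785-54076616), was at 2.69 and 0.869 CPM. It was at 817 to 1203 in the non-tumour cells and already low, at 54.3 to 59.7, in D4 and tVk12653. Egln1, an oxygen sensor that marks hypoxia-inducible factors for decay (chr8:124908587-124949254), was at 0.807 and 0.543 CPM against 25.6 to 62.0. For Nrip1, Dyrk2, Adgrl2 and Egln1 the other tumour libraries reached the levels of the non-tumour cells or came within a few fold of them, and only the D1 libraries were near 0.

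Gabra4, Slco5a1 and Tmem18 had no count in either D1 library. Gabra4, a GABA receptor subunit on chromosome 5, was at 12.8 to 57.7 CPM in the non-tumour cells and 54.5 to 132 in the other tumours, which makes D1 at least 49.99-fold lower than the non-tumour mean. Slco5a1, a member of an anion transporter family, was at least 37.9-fold lower and Tmem18 at least 28.0-fold lower by the same floor of 3 counts a library. Tmem18 lies next to Sntg2 on chromosome 12, and Pdcd5 next to Ankrd27 on chromosome 7, and both members of each pair were below the range. Pdcd5, named for programmed cell death, was at 0.269 and 0 CPM against 11.7 to 42.4, and Ankrd27 at 2.96 and 1.09 against 25.4 to 74.2. Nrip1 lies near Samsn1 and Usp25, which were at 5.65 and 2.82 and at 12.4 and 4.997 CPM in D1 against 25.6 to 84.0 and 41.9 to 123.5 in the non-tumour cells. Samsn1 was lower still in the other tumours, at 0 to 1.59 CPM, and Usp25 was at 0 to 8.21, so neither was outside the range of all libraries.

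Kdm6a, Cyld and Insr were also below the range. Of 24 genes on the list of chromatin regulators, 6 were higher and 8 lower than in the non-tumour cells (median -0.27), with 26.3% of all genes tested higher and 27.5% lower. Kdm6a, a demethylase of histone H3 that is often mutated in myeloma (chrX:18160862-18279936), was at 3.23 and 0 CPM against 66.4 to 166 in the non-tumour cells and 32.2 to 101.1 in the other tumours. Its relative Kdm6b was at 86.1 and 84.4 CPM against 132 to 208 in the non-tumour cells, and inside the range that the other tumours set at 52.2 to 175. Hdac2, a histone deacetylase, was at 2.42 and 0 CPM against 32.2 to 113, while its close relative Hdac1 was at 19.1 and 14.3 against 9.86 to 23.5. Hdac1 thus stayed among the other libraries while Hdac2 was nearly absent. Cyld, a deubiquitinase that restrains NF-kB and is inactivated in some myelomas (chr8:88696878-88751946), was at 4.31 and 2.50 CPM against 236 to 355 in the non-tumour cells and 45.2 to 216 in the other tumours. Insr, the insulin receptor, was at 5.65 and 1.41 CPM against 43.1 to 82.2, and Irs2, its adaptor, at 133 and 147 against 321 to 569.7. The related receptor Igf1r was at 604 and 561 CPM in D1 and 153 to 194 in the non-tumour cells, inside the range set by the other tumours at 466 to 809. Ext1, which polymerises heparan sulfate, was at 0 and 0.217 CPM against 10.9 to 101.5, and its partner Ext2 at 122.7 and 124 against 48.2 to 126. With Ndst3 above the range, enzymes of the same chain stood on both sides. Dusp4, a phosphatase of ERK, was at 0 in both D1 libraries and at 3.45 to 45.8 elsewhere. Of the 92 genes with a 2-fold margin below, 34 were under 1 CPM in both D1 libraries.

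The stretch of 250 bases before a start that RefSeq lists was read for the leading genes to show its CG content. The sequences are those of RefSeq for GRCm38.p6, at the first-listed start of each gene, matched for 10179 of the 12835 genes tested. A listed start can lie inside the gene, as it did for Ndst3, Dyrk2 and Adgrl2, so the 4 genes shown are described genes whose listed start lies within 500 bases of the outer end of the gene. Capitals mark CG dinucleotides, the letters searched, which read the same on both strands. Rbm24 and Pdgfd are shown from above the range, at chr13:46418050-46418299 and chr9:6168236-6168485, both on the plus strand. Nrip1 and Cyld are shown from below it, at chr16:76373828-76374077 on the minus strand and chr8:88696778-88697027 on the plus strand.
Rbm24: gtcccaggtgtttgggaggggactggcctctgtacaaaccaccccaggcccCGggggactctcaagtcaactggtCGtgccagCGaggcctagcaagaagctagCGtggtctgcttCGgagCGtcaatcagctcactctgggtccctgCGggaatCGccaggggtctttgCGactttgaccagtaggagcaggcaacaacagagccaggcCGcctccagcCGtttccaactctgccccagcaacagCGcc
Pdgfd: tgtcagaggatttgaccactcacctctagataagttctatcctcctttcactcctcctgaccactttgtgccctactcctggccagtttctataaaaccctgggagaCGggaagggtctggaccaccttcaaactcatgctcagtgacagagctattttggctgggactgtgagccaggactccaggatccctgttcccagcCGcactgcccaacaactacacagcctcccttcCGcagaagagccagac
Nrip1: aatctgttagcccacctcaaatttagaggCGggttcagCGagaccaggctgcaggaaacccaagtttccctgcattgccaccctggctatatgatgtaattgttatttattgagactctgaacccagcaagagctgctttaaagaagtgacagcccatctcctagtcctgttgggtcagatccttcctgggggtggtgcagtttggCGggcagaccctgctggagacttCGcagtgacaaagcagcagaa
Cyld: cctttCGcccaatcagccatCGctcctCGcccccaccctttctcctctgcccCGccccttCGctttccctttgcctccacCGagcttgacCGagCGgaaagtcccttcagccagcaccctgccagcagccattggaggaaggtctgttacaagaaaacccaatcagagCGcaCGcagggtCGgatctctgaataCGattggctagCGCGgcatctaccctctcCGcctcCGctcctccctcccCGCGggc
The Rbm24 stretch holds 12 CG and the Pdgfd stretch 3, against 4 for Nrip1 and 18 for Cyld, so the sides overlap in these examples. Over all genes tested the median was 16, and 72.4% held at least 10 CG. Among genes above the range with a 2-fold margin, 48.5% of the 66 matched held at least 10, and among those below with the same margin, 77.3% of the 66 matched did. With only starts within 500 bases of the outer end of the gene, a restriction chosen after seeing the data, the shares with at least 10 were 53.8% of 52 above, 78.7% of 47 below and 73.8% of the 8686 genes matched. The range rule itself treats the sides differently. A gene below with this margin had to be expressed in every other library. Of the 86 genes above with a 2-fold margin, 18 were under 1 CPM in all other libraries. The sets were not matched for level with each other or with all genes tested. Whether the CG shares are a feature of line D1 was therefore not tested. Which start these cells use and whether the CG sites are methylated were not measured, and a count of letters is a description.

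Chromosomes 5 and 8 stood apart in line D1. Each gene's log2 CPM in a library, with a prior count of 2 scaled to library size, was set against its mean over the 6 non-tumour libraries. The median was taken over the genes of a chromosome with a mean of at least 10 CPM. In the D1 libraries the medians were -0.79 and -0.81 on chromosome 5 (556 genes) and -0.78 in both on chromosome 8 (457 genes), while every other chromosome shown lay between 0.02 and 0.22. Line D4 had a median of -0.85 on chromosome 5, and tVk12653 had -0.76 and -0.78 on chromosome 8 and -0.21 and -0.27 on chromosome 5. The shift ran along the whole of each chromosome: in windows of 20 Mb with at least 20 genes, D1 medians were -0.86 to -0.72 in the 6 windows of chromosome 5 and -0.94 to -0.58 in the 7 of chromosome 8. These window values, and the shares of genes lower in the D1 mean, use log2(CPM + 1) instead. On chromosome 5, 87.1% of genes were lower in the D1 mean, and on chromosome 8, 84.9%, against 37.8% to 48.9% on the others. Both D1 values lay below all 6 non-tumour values for 394 genes of chromosome 5 (70.9%) and 313 of chromosome 8 (68.5%), against 20.9% to 29.4% elsewhere. DNA was not measured, so the number of copies of these chromosomes is not known here.

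**Figure D3:**
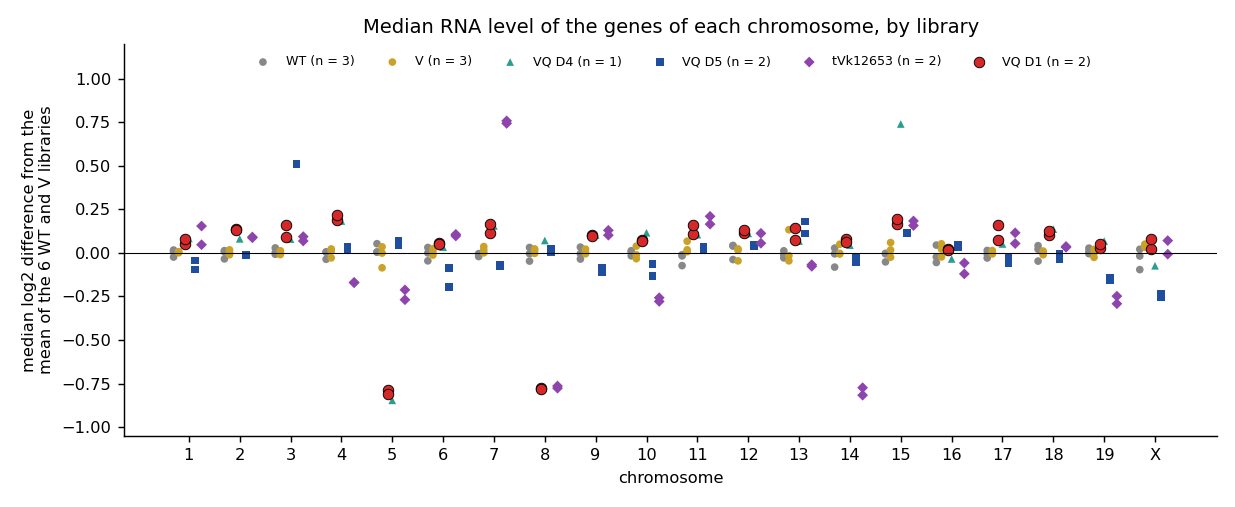
Median difference from the non-tumour mean (y axis, log2 CPM with a prior count of 2) over the genes of each chromosome (x axis), one point a library, coloured by group. The D1 points drop to between -0.81 and -0.78 on chromosomes 5 and 8 and lie between 0.02 and 0.22 elsewhere.

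Chromosomes 5 and 8 also held many of the genes below the range. They supplied 138 of 799 tested genes of chromosome 5 (17.3%) and 98 of 679 of chromosome 8 (14.4%), against 5.06% of all genes, and together 36.4% of the 649 genes below, where 11.5% of all genes tested lie. Only 12 and 6 of the 614 genes above the range lay there. Egln1, Cyld, Insr, Irs2 and Dusp4 are on chromosome 8 and Gabra4 and Cpeb2 on chromosome 5. Egln1, Cyld and Gabra4 lay far below the shift of their chromosomes, with D1 values from 0 to 4.31 CPM. These 2 chromosomes held 20.7% of the 92 genes below with a 2-fold margin, 24.4% of the 41 with a 4-fold margin and 31.6% of the 19 with an 8-fold margin. Nrip1, Dyrk2, Adgrl2, Reep3, Man1a, Hdac2 and Kdm6a lie on others.

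Gene groups of ribosome biogenesis, mitosis, DNA replication and oxidative phosphorylation rose in line D1 relative to the non-tumour cells. Of 30 genes of ribosome biogenesis and nucleotide synthesis, 26 were higher and none lower, with a median log2 change of 1.54 against -0.05 over all genes tested. Ncl, which encodes nucleolin, was at 2987 and 2949 CPM against 880 to 1285 (1.58 ± 0.12, adjusted p = 1.1e-07), and D1 did not overlap the non-tumour libraries. Of 28 mitosis genes 23 were higher (median 1.34), although only 11 were without D1 replicate 2. Mki67, the proliferation antigen, was at 2585 and 3435 CPM against 554 to 1608 (1.58 ± 0.32, adjusted p = 0.0025). DNA replication had 22 of 30 higher (median 1.15), or 16 with WT alone as the comparator. Oxidative phosphorylation had 20 of 30 higher and 1 lower (median 0.62). Relative to the non-tumour mean, the DNA replication list median was 0.95 and 1.29 in D1 and 0.97 in WT replicate 2, so D1 replicate 1 overlapped. The mitosis median was 1.22 and 1.52 in D1 and 1.09 in WT replicate 2. The D1 medians of ribosome biogenesis and oxidative phosphorylation lay above those of all non-tumour libraries. None of the ribosome biogenesis, mitosis or replication genes lay outside the range of all other libraries, so D1 lay within the span of the other libraries for these groups. Among genes that read out RAS-ERK signalling, 8 of 21 were higher and 4 lower (median 0.27), or 1 lower without D1 replicate 2. Over all genes tested, 26.3% were higher and 27.5% lower. Relative to the non-tumour mean, the RAS-ERK list median was 0.58 and 0.34 in the D1 libraries. Both values lay inside the span of the non-tumour libraries, -0.61 to 0.74. Lines D5 (1.27 and 1.89) and D4 (2.16) had higher medians than D1, whereas those of tVk12653 were lower (-0.60 and -0.06). Spry4, a feedback inhibitor of the pathway, was at 96.9 and 70.1 CPM against 0 to 1.47 (7.18 ± 0.33, adjusted p = 4e-09), and Etv5, a transcription factor it controls, at 64.3 and 33.0 against 8.53 to 12.8 (2.15 ± 0.23, adjusted p = 3.7e-06). Only 5 RAS-ERK genes were higher without D1 replicate 1.

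Genes of the p53 pathway, and p53 itself, were higher in line D1 than in the non-tumour cells. Most other tumour libraries shared the rise of the pathway genes. The list median, relative to the non-tumour mean, was 1.40 and 1.29 in the D1 libraries. It was 1.17 and 1.47 in tVk12653, 1.06 and 0.85 in D5 and 0.46 in D4. Of 17 tested, 11 were higher than in the non-tumour cells and 1 lower (median 1.22), against 26.3% and 27.5% of all genes tested. Of the 17, 4 lay above the range of all other libraries. Trp53, which encodes p53, was at 93.7 and 107 CPM against 34.9 to 49.8 in the non-tumour cells and 32.4 to 67.2 in the other tumours. Cdkn1a, the p21 inhibitor of cyclin-dependent kinases, was at 65.4 and 84.1 CPM against 1.99 to 15.3 in the non-tumour cells and 18.7 to 23.7 in the other tumours. Zmat3, an RNA-binding target of p53, was at 223 and 228 CPM, with the other tumours at 97.9 to 139 and the non-tumour cells at 24.4 to 67.9. Phlda3, an inhibitor of AKT, was at 17.2 and 15.5 CPM, just above D5 at 14.3 in both its libraries, and at most 0.493 in the non-tumour cells. The exception was Fas, a death receptor, which was below the range at 1.88 and 1.30 CPM against 15.1 to 31.2 in the non-tumour cells. Pmaip1, which encodes the death-promoting protein NOXA, was at 206 and 208 CPM against 21.7 to 66.5 (2.58 ± 0.18, adjusted p = 1.2e-07), a level that tVk12653 and D5 shared at 166 to 258. Over all genes tested, 13.9% were higher and 11.4% lower in D1 than in the other lines. Against the other lines, 9 of the 17 were higher in D1 and 2 lower; without D1 replicate 1 only 4 were higher, without replicate 2 only 5, and with recipients summed 4.

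**Figure D4:**
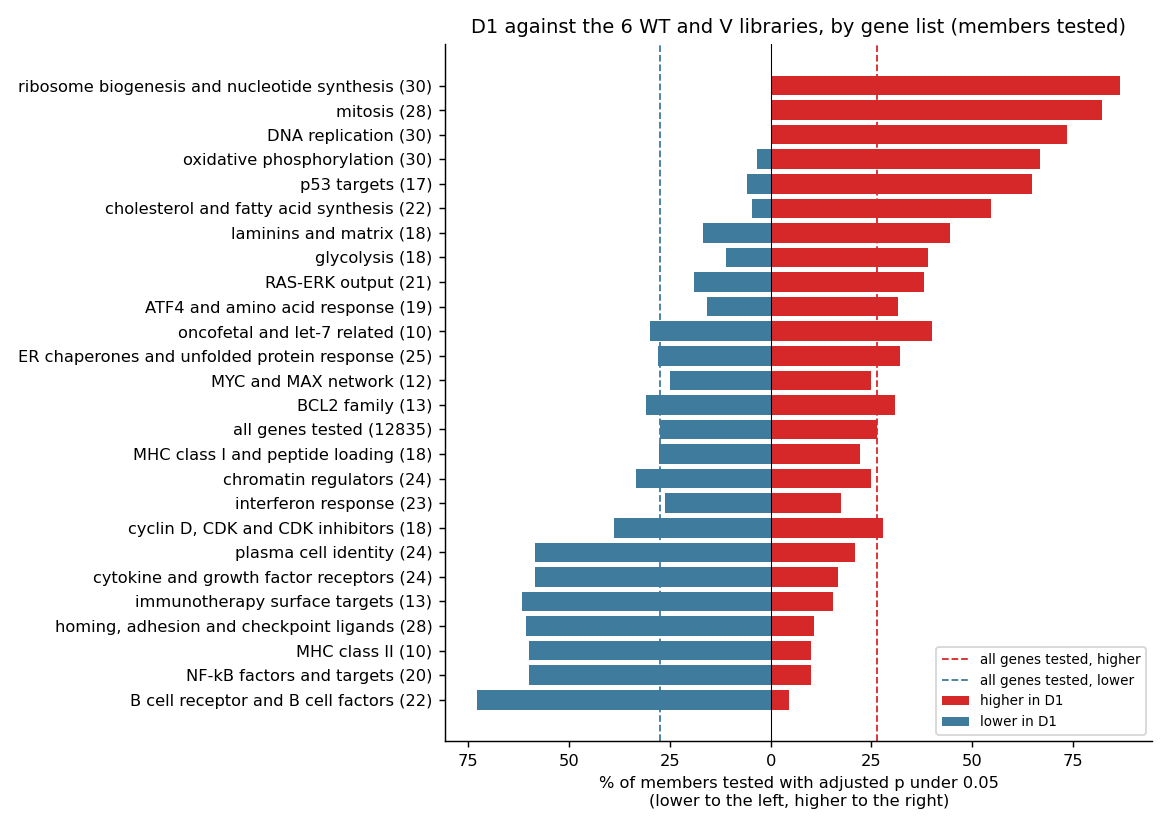
Share of tested members (x axis, %) that were higher (right) or lower (left) in line D1 than in the 6 non-tumour libraries at an adjusted p under 0.05, for each gene list (y axis, members tested in parentheses); the dashed lines mark all genes tested, 26.3% higher and 27.5% lower. Ribosome biogenesis is at the top with 26 of 30 higher, and the B cell receptor list at the bottom with 16 of 22 lower.

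Lipid genes rose in part. Of 22 genes of cholesterol and fatty acid synthesis, 12 were higher and 1 lower (median 0.92), against 26.3% and 27.5% of all genes tested. Of the 22, 4 lay above the range, among them Hmgcs1, Fdft1 and Lss, all steps on the way to cholesterol. Hmgcs1, an early step, was at 39.0 and 53.1 CPM against 17.8 to 33.7 in all others. Fdft1, the squalene synthase, was at 86.4 and 57.6 CPM against 18.9 to 45.1 in all others. Fasn, fatty acid synthase, was at 453 and 519 CPM against 138 to 199 (1.58 ± 0.11, adjusted p = 4.2e-08) with the other tumours at 402 to 861. Scd1, a desaturase, went down to 5.11 and 0.652 CPM from 36.3 to 129.8 (-5.55 ± 1.11, adjusted p = 0.0032).

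Of 18 laminin and matrix genes, 3 were above the range. Compared with the non-tumour cells, 8 of the 18 were higher and 3 lower (median 1.16), against 26.3% and 27.5% of all genes tested. Without D1 replicate 2 none of them was lower. The list median, relative to the non-tumour mean, was 1.33 in D1 replicate 1 and 0.37 in replicate 2. WT replicate 1 was also at 0.37, so D1 replicate 2 lay at the edge of the non-tumour libraries. Lamc1, a laminin gamma chain, was at 992 and 961 CPM against 174 to 294 in the non-tumour cells and 428 to 655 in the other tumours. Lamb1, a laminin beta chain, was at 207 and 124 CPM in D1 and at most 1.06 in the non-tumour cells (7.82 ± 0.32, adjusted p = 7.9e-09). The other tumours ran from 347 for D4 through 46.4 and 31.2 for D5 to 0 for both tVk12653 libraries. Mmp14, a membrane-bound matrix protease, was at 25.03 and 21.0 CPM against at most 6.27 elsewhere. Over all genes tested, 13.9% were higher in D1 than in the other lines. Against the other lines 8 matrix genes were higher, and 4 without D1 replicate 1.

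Plasma cell genes fell in D1 more often than they rose. Of 24 on the list, 14 were lower and 5 higher (median -0.81), or 3 higher without D1 replicate 2. Jchain, which links IgA and IgM units, was at 696 and 941 CPM against 33543 to 64456 (-5.76 ± 0.50, adjusted p = 8.1e-06), and the other tumours were also low at 44.5 to 6740. Xbp1, the transcription factor of the secretory programme, was at 1329.5 and 1522 CPM against 1963 to 3308 (-0.99 ± 0.18, adjusted p = 0.00031), below every non-tumour library. Irf4, the lineage factor of plasma cells, was at 2351 and 2264 CPM against 941 to 1879 (0.54 ± 0.17, adjusted p = 0.017). Tnfrsf17, which encodes the survival receptor and drug target BCMA, was below the range at 8.34 and 2.82 CPM against 82.9 to 149 in the non-tumour cells and 20.6 to 83.6 in the other tumours. Txndc5, a disulfide isomerase, was below it at 1960 and 887 CPM against 2139 to 7040. Among chaperone and unfolded protein genes, 8 of 25 were higher and 7 lower (median 0.07), near the 26.3% and 27.5% of all genes tested. On this list 1 gene was above the range, and Herpud1 and Dnajb9, both part of the disposal of misfolded proteins, were below it. Herpud1 was at 373 and 262 CPM against 407 to 1628, and Dnajb9 at 96.4 and 86.9 against 111 to 366. B cell receptor genes and B cell factors had 16 of 22 lower and 1 higher (median -2.62); 9 of them are also on the B cell marker list whose sums are given above, and their part in the change was not tested. Syk, the kinase below the receptor that plasma cells keep, was at 186 and 192 CPM against 540 to 641 (-1.63 ± 0.13, adjusted p = 2.4e-07). MHC class II genes had 6 of 10 lower (median -2.89), while Cd74, the invariant chain, was at 3253 and 2514 CPM against 2889 to 4439 (-0.35 ± 0.24, adjusted p = 0.24).

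Homing, adhesion and checkpoint genes were lower in D1 more often than higher. Of 28 on the list, 17 were lower and 3 higher (median -1.68), or 1 higher without D1 replicate 2, and Itgal and Selplg were below the range. Selplg, the P-selectin ligand, was at 70.8 and 89.5 CPM against 101.5 to 334. Itgb7, an integrin beta chain, was at 6.46 and 5.65 CPM against 85.3 to 127 (-4.17 ± 0.26, adjusted p = 2.8e-08). Itga4, its alpha chain, rose instead, to 1126 and 1140 CPM from 591 to 789 (0.72 ± 0.13, adjusted p = 0.00025). Cxcr4, the receptor for CXCL12, was at 140.1 and 157 CPM against 105 to 172 (0.21 ± 0.16, adjusted p = 0.29). Ccr2 and Vcam1 on this list are also monocyte markers, whose sum was 168 and 126 CPM in D1 against 252 to 1636, and the part of other cells was not tested. A large part of that D1 sum came from Cd68, at 304 and 762 counts. Cytokine and growth factor receptors had 14 of 24 lower and 4 higher (median -0.92), with 8 lower without D1 replicate 2. Among all genes tested, 27.5% were lower and 26.3% higher. Tgfbr2, a TGF-beta receptor, was at 3.77 and 1.52 CPM against 122 to 167 (-5.98 ± 0.30, adjusted p = 1.2e-08). Il6ra, a chain of the receptor for the myeloma growth factor IL-6, was at 129.7 and 149 CPM against 57.7 to 78.5 (1.04 ± 0.14, adjusted p = 3.1e-05). NF-kB factors and targets had 12 of 20 lower and 2 higher (median -0.75), with 5 lower without D1 replicate 2. Nfkb2, the precursor of the alternative pathway, was at 86.4 and 59.4 CPM against 133 to 184 (-1.08 ± 0.26, adjusted p = 0.0046), and Tnfaip3, an inhibitor that NF-kB induces, at 189 and 119 against 92.2 to 184 (0.30 ± 0.18, adjusted p = 0.17). Against the other lines, 10 of the 20 were higher in D1 and 3 lower (median 0.44), beside 13.9% and 11.4% of all genes tested.

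Interferon response genes in line D1 stayed near the non-tumour level and differed from the other tumour lines. Of 23 tested, 4 were higher and 6 lower than in the non-tumour cells (median -0.25), beside 26.3% and 27.5% of all genes tested. But 19 were higher and none lower than in the other lines (median 2.98, against 0.06 over all genes), beside 13.9% and 11.4% of all genes tested. The 19 became 10 without D1 replicate 2 and 13 with recipients summed. The list median, relative to the non-tumour mean, was -0.43 and -0.18 in the D1 libraries and -1.87 to -1.52 in the other 5 tumour libraries, which did not overlap with D1. Irf9, a transcription factor of the response, was at 67.3 and 72.1 CPM in D1, 38.1 to 98.1 in the non-tumour cells and 14.6 to 28.4 in the other tumours. Bst2, Gbp3 and Ifi44 went above every other library. Gbp3, a guanylate-binding protein, was at 312 and 525 CPM against 27.9 to 242, and Bst2, the membrane protein tetherin, at 96.1 and 129 against 31.3 to 86.8. Ifi44 was low throughout, at 8.88 and 15.4 CPM against at most 3.44. Outside the list, Gbp5, a further guanylate-binding protein, was at 152 and 422 CPM against 9.01 to 67.8, and Cgas, the sensor of cytosolic DNA, at 16.4 and 18.1 against 0.649 to 6.70. Of 18 genes of MHC class I and peptide loading, 4 were higher and 5 lower than in the non-tumour cells (median 0.06), and 9 were higher and none lower than in the other lines, or 4 without D1 replicate 2. Neutrophil marker genes moved with this comparison: 13 of 19 were higher in D1 than in the other lines, or 4 without D1 replicate 1, and their sum was larger in D1 replicate 1 (1357 CPM) than in replicate 2 (411), whereas the interferon median was higher in replicate 2. The part of other cells in these differences was not tested.

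**Figure D5:**
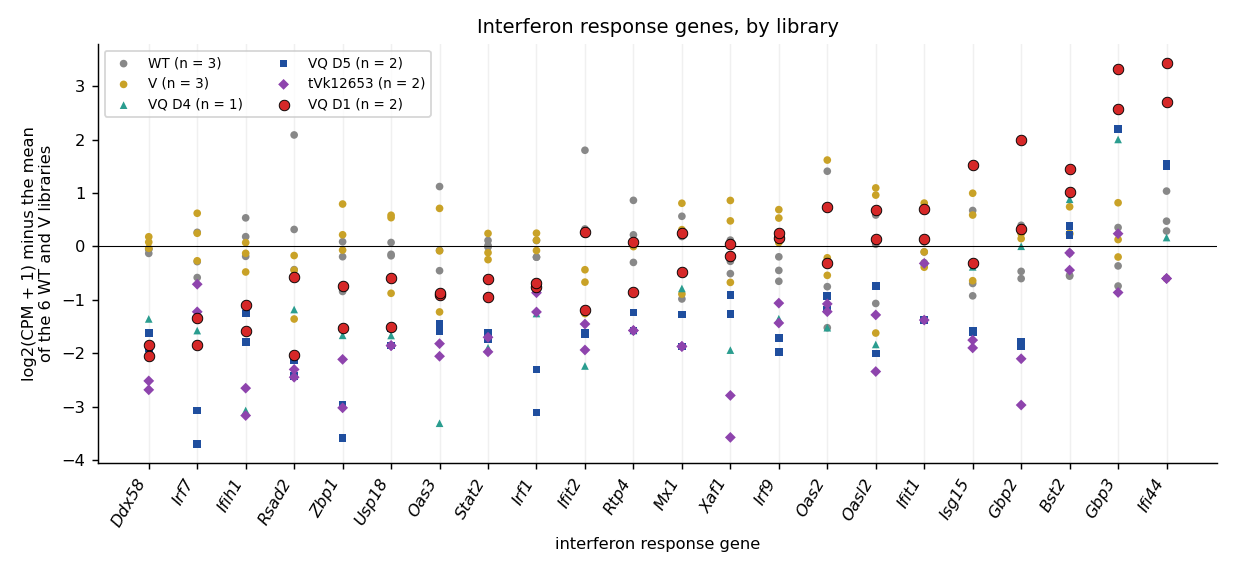
Difference from the mean of the 6 non-tumour libraries (y axis, log2(CPM + 1) units) for 22 of the 23 interferon response genes (x axis), one point a library, coloured by group. Most D1 points lie among the WT and V points and above the other tumour lines, whose list medians were -1.87 to -1.52, and Bst2, Gbp3 and Ifi44 at the right lie above all of them.

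Irf9 belongs to a small class in which D1 was the only tumour line inside the non-tumour range while all 5 other tumour libraries lay outside it on 1 side. The class held 157 genes (1.22%), 87 with the other tumours below and 70 with them above. With a 2-fold margin it held 10 and 4, and without D1 replicate 2 the first count rose to 264. Plekha5, a pleckstrin homology domain protein, was at 23.4 and 19.6 CPM in D1 and 18.8 to 38.4 in the non-tumour cells, and at most 0.256 in the other tumours. Trim30a, an interferon-inducible TRIM protein, was at 59.7 and 64.2 CPM, 48.4 to 88.8 and 1.02 to 3.44 in the same order. Homer2, a scaffold protein of signalling complexes, showed the reverse, at 0.538 and 0.217 CPM in D1, at most 3.69 in the non-tumour cells and 42.7 to 188 in the other tumours.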

How the data were processed

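Raw counts by gene symbol for 13 libraries were analysed as the authors deposited them. Reads were aligned with STAR 2.6.1d to GRCm38.p6, per the submitters' processing notes; how reads were counted, with which annotation and strand setting, is not stated in the sources at hand. Of 22997 symbols, 12835 passed filterByExpr (10 counts, 15 in total), of which 12685 had a position in the RefSeq table. Counts were scaled by TMM and tested with edgeR 4.0.16 (R 4.3.3, limma 3.58.1) on all 13 libraries as 6 groups, with 7 residual degrees of freedom and no batch term. Line D1 was set against the mean of WT and V, and then of the other lines, at an adjusted p under 0.05. Range gaps use log2(CPM + 1). DESeq2 1.42.0 was an alternative. On data simulated for D1 against the non-tumour cells over 12505 genes, 61% of 2-fold and 90% of 4-fold changes were recovered, with 11 false calls. There 100 genes were changed 2-fold and 100 were changed 4-fold. All others were equal in D1, WT and V, and no chromosome was shifted. In the data 53.8% of genes were called, so these rates need not hold there. Replicates differed beyond sampling noise (chi-square per degree of freedom 9.66 for D1). Where the labels do not name separate animals, p-values measure only the spread between libraries. WT and V libraries of the same number had weakly correlated deviations (r = 0.19, 0.158 and 0.125), against -0.144 to -0.038 for unlike numbers. The labels name no pairing, so any pairing rests on these values alone. With 2 D1 libraries each r has a mirror value, such as 0.133 and -0.133 with WT replicate 2. Pairing of D1 could therefore not be judged. The members and lists were chosen with earlier results of these data known. Genes were named by rank of gap (15 above, 10 below, 8 in the class shared with non-tumour cells), by largest change (8 a side) and from the lists (4 each); other genes were named after their values were seen. Some genes are not reported here, though the counts and medians of lists include them.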

Additional observations from a re-analysis of the deposited data

Results flagged for a closer look

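Ly6d, a surface protein of the Ly6 family, moved in opposite directions in line D1 and in the mean of the other transplanted lines, each against the non-tumour cells. It was at 565 and 574 CPM in D1 and at 119 to 295 in the non-tumour libraries (log2 change 1.57 ± 0.17, edgeR adjusted p = 5.62e-06), and the mean of the other lines was lower by -2.48 (edgeR adjusted p = 2.69e-06). The difference between D1 and the other lines was 4.04 ± 0.26 (edgeR adjusted p = 1.93e-07). The other lines did not act alike: D5 was at 0 and 0.256 CPM, D4 at 357 and tVk12653 at 632 and 810.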

How the results depend on the processing

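Counts of genes were the values that moved most. At a change of at least 2-fold, 1822 genes were higher in D1 than in the non-tumour cells; with recipients summed, 898 genes were higher and 683 lower than in the other lines. Genes above the range were 995 with CPM by total counts alone, 86 above and 92 below kept a 2-fold margin, and the class in which D1 alone among tumours lay in the non-tumour range fell to 10 and 4. Leaving out 1 library at a time gave 2261 to 3396 genes higher and 2219 to 3529 lower than in the non-tumour cells, 1038 to 1655 higher and 699 to 1357 lower than in the other lines, 621 to 1092 above and 660 to 1009 below the range, and 63 to 133 (other tumours above) and 72 to 264 (below) in the class. By over 1.5 times, D1 replicate 2 moved the lower count against the non-tumour cells, each D1 replicate moved the counts against the other lines, above the range and in the class, D1 replicate 1 the count below the range, and D4 the counts in the class. Leaving out WT replicate 2 and D1 replicate 1 together, chosen after seeing the data, gave 1152 above and 1068 below the range, and 112 (other tumours above) and 126 (below) in the class. DESeq2 gave 2964 higher and 3643 lower. With a replicate block, 3119 were higher and 3352 lower than in the non-tumour cells and 1740 and 1437 than in the other lines; calls ended for 4 named genes, among them Car2, Ngp and Pf4, markers of other cells. Of 211 genes named from the lists, by largest change or as fixed markers, 164 kept call and direction under all alternatives. Genes named only by rank of gap or after their values were seen were not in that count. Cxcl12 reversed, to -1.47 with WT alone as the comparator, from 0.14. The floor of 3 counts a library, used for the fold bounds, corresponds to 0.807 and 0.326 CPM in the D1 libraries. Lower D1 values, such as 0.269 CPM for Dyrk2 in D1 replicate 1, rest on fewer counts than that.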

Other observations

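Genes of the X chromosome were above the range in line D1 in 34 of 405 tested (8.40%), against 4.78% of all genes; chromosomes 14 (9.02%) and 4 (8.60%) had higher shares. Xist, the RNA that coats the silent X chromosome, was at 40.1 and 3.80 CPM in D1. It was at 1481 in WT replicate 1, at 2.58 and 3.98 in WT replicates 2 and 3, and at 1493 to 2631 in V. The non-tumour libraries thus differ in it, and D1 lies with the low ones. The other tumour libraries were low too, at 3.24 to 97.6 CPM.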
